A study of Mus musculus with 6 samples.

Results

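The cytosolic ribosome is built from ribosomal RNA and about as many different proteins as there are genes described here. The genes were the protein-coding genes whose symbols begin with Rps (small subunit) or Rpl (large subunit) followed by a number, with Rplp0, Rplp1, Rplp2 and Rpsa, and with annotated pseudogenes left out. This gave 84 of the 52550 genes listed, 32 of the small and 52 of the large subunit, and 81 of them passed a filter of at least 1 FPKM (fragments scaled by transcript length in kilobases and by M fragments mapped) in at least 3 of the 6 libraries. All 32 small subunit genes and 49 large subunit genes passed. The other 3, Rpl3l, Rpl39l and Rpl10l, are paralogs of ribosomal proteins and were listed at 0 in every library.

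RNA-seq was made from colon epithelium of male C57BL/6 mice, 3 libraries labelled Zfp90 fl/fl and 3 labelled Zfp90 ΔIEC. Zfp90 fl/fl mice carry floxed alleles of the zinc finger gene Zfp90 with no deletion, and in Zfp90 ΔIEC mice Villin-cre, which is active along the intestinal epithelium, deletes it in those epithelial cells. Mice of both groups entered the experiment at 6 to 8 weeks of age. All received the carcinogen azoxymethane (AOM) at 10 mg/kg and, 5 days later, 3 cycles of 7 days of 2% dextran sulfate sodium (DSS), which injures the colon, and 14 days of water, and were killed on day 80. The age and the DSS concentration are those of the sample labels, and the published methods give 8 weeks and another concentration. No untreated mice were sequenced, epithelium was released with EDTA and DTT rather than sorted, and mice were housed by genotype. Effects of cage and of genotype cannot be told apart. The labels do not say that each library came from its own mouse, and p-values measure only the spread between these libraries.

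Ribosomal protein genes are transcribed at a high and even level in dividing and secreting tissues, since each ribosome needs 1 copy of nearly every protein. Their mRNAs, with those of several translation factors, begin with a C followed by a run of pyrimidines, the 5′ terminal oligopyrimidine tract, through which mTOR and the RNA-binding protein Larp1 set how well they are translated and how stable they are. The intestinal epithelium renews itself continuously from crypt cells, which hold more ribosomes than the differentiated cells of the surface. A change of mRNA is not a measure of ribosome number or of translation.

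Start regions of some of these genes are shown because the terminal oligopyrimidine tract is the sequence that the family shares. In the RefSeq table for GRCm38.p6, 64 of the 84 genes had a start. Each line below gives 30 bases of the gene strand, 15 on each side of the RefSeq start, with 3 pyrimidine words in capitals wherever they occur. One word is CTCTTT. Another is CTTTCC. The last is CTTCCT. They can overlap one another. The lines are examples, and most starts of these genes held none of the words in these 30 bases. Rpl35a has other starts in the RefSeq table, which held none of them there. The first 5 belong to genes whose FPKM was lower in all Zfp90 ΔIEC libraries than in any Zfp90 fl/fl library, the next 3 to genes whose libraries overlapped, and the last 2 to genes with lower FPKM that have none of the words in these bases.
Rps6, chr4:86857353-86857382, minus strand: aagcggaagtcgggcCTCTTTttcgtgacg
Rps10, chr17:27635230-27635259, minus strand: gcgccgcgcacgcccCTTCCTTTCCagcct
Rpl15, chr14:18270972-18271001, minus strand: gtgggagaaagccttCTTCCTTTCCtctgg
Rps9, chr7:3704026-3704055, plus strand: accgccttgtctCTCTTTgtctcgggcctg
Rpl13a, chr7:45128731-45128760, minus strand: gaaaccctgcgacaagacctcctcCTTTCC
Rpl35a, chr16:33056467-33056496, plus strand: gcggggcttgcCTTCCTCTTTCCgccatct
Rpl38, chr11:114668565-114668594, plus strand: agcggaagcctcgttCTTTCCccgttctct
Rps15a, chr7:118116133-118116162, minus strand: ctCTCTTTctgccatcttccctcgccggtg
Rplp0, chr5:115559452-115559481, plus strand: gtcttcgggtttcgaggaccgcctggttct
Rpsa, chr9:120127751-120127780, plus strand: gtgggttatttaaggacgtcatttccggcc

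From 20 bases before to 40 after the start on the gene strand, 35 of the 64 genes (54.7%) held at least 1 of the 3 words, against 10.2% of all 27025 genes of the table and 10.5% of the 8418 tested genes in it. Searched on both strands the shares were 60.9% and 20.3%. CTCTTT was found in 23.4% of the ribosomal protein genes and in 2.61% of all genes, CTTTCC in 26.6% and 3.24%, and CTTCCT in 21.9% and 5.20%. CCGGAAG, a word bound by Ets family factors, was found on either strand of the 300 bases around the start in 40.6% of the ribosomal protein genes, in 9.93% of all genes and in 21.9% of the tested genes. TATAAA on the gene strand was found in 9.38% of the ribosomal protein genes, in 9.77% of all genes and in 5.43% of the tested genes. A match is a description of the letters and not a mapped start or a binding site.

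The ribosomal protein transcripts were lower in the Zfp90 ΔIEC libraries, by a small amount that was much alike from gene to gene. The log2 fold change of FPKM + 1, Zfp90 ΔIEC minus Zfp90 fl/fl, was below 0 for 77 of the 81 genes (57.2% of all 11564 genes tested were below 0). Its median was -0.14, with quartiles of -0.18 and -0.11, against a median of -0.02 over all genes tested. In mean FPKM, 67 genes were 5 to 20% lower, 3 were over 20% lower, and 11 were under 5% lower or were higher. In 49 of the 81 genes every Zfp90 ΔIEC library lay below every Zfp90 fl/fl library, against 12.6% of all genes tested. In 0 of the 81 every Zfp90 ΔIEC library lay above, against 8.73% of all genes tested.

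No single gene of the 81 passed an adjusted p of 0.05 in limma with Benjamini-Hochberg adjustment over all genes tested (0.199% of which passed, 15 lower and 8 higher). The smallest adjusted p was 0.0873, for Rplp0. At an unadjusted p under 0.05, 37 of the 81 genes were lower and 0 were higher, against 8.09% lower and 6.56% higher over all genes tested. With FPKM rescaled by the median ratio over genes, 16 were lower and 0 were higher, against 5.71% lower and 8.28% higher over all genes, and the median over the 81 was -0.11. In the reported scaling, 14 were lower without Zfp90 fl/fl replicate 2 (5.64% of all genes tested). The number was 19 without Zfp90 fl/fl replicate 3 (6.03%) and 22 without Zfp90 ΔIEC replicate 2 (6.87%). Log2 fold changes stayed below 0 for at least 75 of the 81 genes under every alternative scaling, filter and left-out library that was tried.

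**Figure D1:**
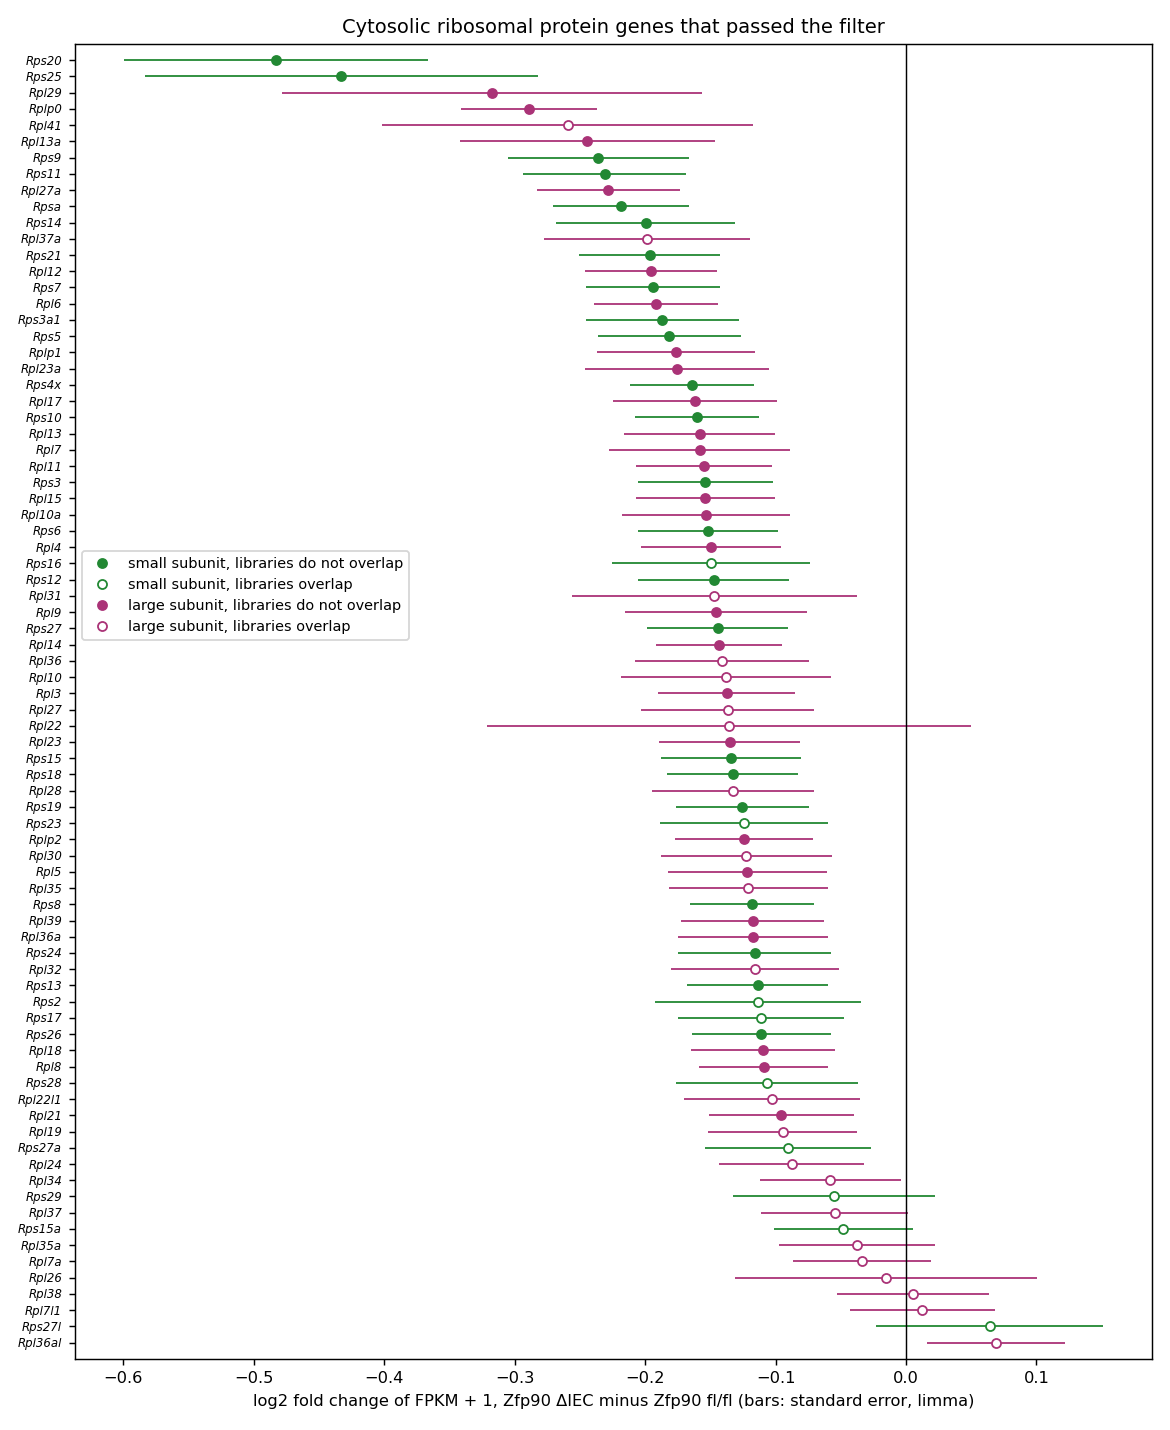
Each row is 1 of 80 of the ribosomal protein genes that passed the filter, ordered by its log2 fold change of FPKM + 1 (x axis, Zfp90 ΔIEC minus Zfp90 fl/fl; bars are limma standard errors). Filled points are genes whose 3 libraries per genotype did not overlap, green for the small and purple for the large subunit; 76 of 80 points lie left of 0, most of them between -0.10 and -0.25, with both subunits mixed along the order.

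Summed over all 84 genes, which FPKM allows since it is per transcript length, the ribosomal protein transcripts took 3.596, 3.809 and 3.646% of all FPKM in Zfp90 fl/fl replicates 1, 2 and 3. In Zfp90 ΔIEC replicates 1, 2 and 3 they took 3.21, 3.20 and 3.32%. The groups did not overlap, and the mean share went from 3.68% ± 0.111 to 3.24% ± 0.0656 (SD, n = 3), a log2 ratio of -0.18 where the SD within genotypes was 0.0369 on that scale. Total FPKM did not overlap either, at 429999 to 439684 in Zfp90 fl/fl and 439732 to 446674 in Zfp90 ΔIEC libraries. The mean share was 11.9% lower, and the mean summed FPKM of the 84 genes 10.2% lower. Transcripts encoded by the mitochondrial genome took 30.0 to 32.9% of FPKM in Zfp90 fl/fl libraries and 31.3 to 32.6% in Zfp90 ΔIEC libraries.

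Libraries of 1 genotype also differed in many of the genes at once. Zfp90 fl/fl replicate 2 was the highest of the 6 libraries in 44 of the 81 genes, against 19.4% of all genes tested. Zfp90 ΔIEC replicate 1 was the lowest in 40 of the 81 and Zfp90 ΔIEC replicate 2 in 28, against 21.1% and 21.4% of all genes tested. Zfp90 ΔIEC replicate 3, whose median deviation from the gene means was -0.03 on the log2 scale, lay closest to the Zfp90 fl/fl libraries, of which the lowest was replicate 1 at 0.04. Genes measured in the same 6 libraries are not independent observations of the genotype.

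Both subunits were lower by similar amounts. The 32 small subunit genes summed to 6585, 6747 and 6635 FPKM in Zfp90 fl/fl libraries and to 5803, 5899 and 6116 FPKM in Zfp90 ΔIEC libraries, a sum 10.8% lower. The large subunit genes summed to 9227, 9631 and 9288 FPKM and to 8310, 8373 and 8712 FPKM, a sum 9.77% lower. Neither sum overlapped between genotypes.

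The ratio of the small to the large sum was 0.714, 0.701 and 0.714 in Zfp90 fl/fl and 0.698, 0.704 and 0.702 in Zfp90 ΔIEC libraries. These values overlapped, and the log2 ratio of their means, -0.016, was close to the SD within genotypes of 0.012. The median log2 fold change was -0.15 over the small subunit and -0.14 over the large. At an unadjusted p under 0.05, 20 of 32 small and 17 of 49 large subunit genes were lower (8.09% of all genes tested). The Zfp90 ΔIEC libraries lay lower without overlap in 23 of 32 and in 26 of 49 (12.6%). The difference between these counts was not tested.

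**Figure D2:**
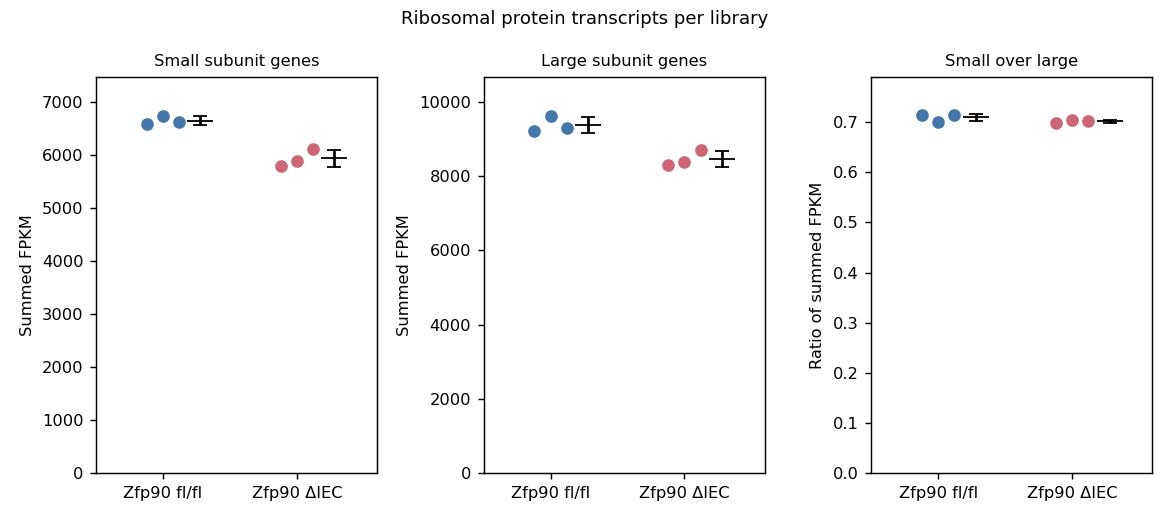
Points are the 6 libraries, with the mean and SD of each genotype in black; the y axes are the summed FPKM of the small subunit genes, of the large subunit genes, and the ratio of both. Both sums lie lower in all 3 Zfp90 ΔIEC libraries, and the ratios, 0.698 to 0.714, overlap.

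Rplp0, the scaffold of the large subunit stalk that calls translation factors to the ribosome, was the second most abundant of the family. It was measured at 705, 750 and 734 FPKM in Zfp90 fl/fl and at 589, 597 and 604 FPKM in Zfp90 ΔIEC libraries. All Zfp90 ΔIEC values were below all Zfp90 fl/fl values and close to one another, with a log2 fold change of -0.29 (SE 0.0519, unadjusted p = 0.000876, adjusted p = 0.0873 in limma). Rplp1 and Rplp2 form the dimers that bind Rplp0. Rplp1 was measured at 452, 501 and 481 against 407, 433 and 428 FPKM, and Rplp2 at 50.4, 52.2 and 53.1 against 48.8, 45.9 and 47.9 FPKM. Neither overlapped, with log2 fold changes of -0.18 and -0.12. Rpl12, at the base of the stalk, had a log2 fold change of -0.20. All 4 stalk genes lay lower without overlap (12.6% of all genes tested, 49 of the 81 family genes). Of the 4, 3 had an unadjusted p under 0.05 (8.09% and 37 of the 81).

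Rpl5 and Rpl11 join the 5S ribosomal RNA in a particle that can also bind the p53 regulator Mdm2 when ribosome assembly is disturbed. Rpl5 was measured at 127, 131 and 131 FPKM in Zfp90 fl/fl and at 123, 111 and 123 FPKM in Zfp90 ΔIEC libraries. Rpl11 was measured at 82.0, 84.4 and 80.8 against 71.3, 75.2 and 75.2 FPKM. Both were lower without overlap, with log2 fold changes of -0.12 and -0.15 (unadjusted p = 0.0857 and 0.0206, adjusted p = 0.414 and 0.256 in limma). That of Rpl5 was -0.072 without Zfp90 ΔIEC replicate 2. All 8 genes whose proteins lie around the polypeptide exit tunnel had log2 fold changes below 0 (57.2% of all genes tested). Of the 8, 4 lay lower without overlap (12.6%) and 3 had an unadjusted p under 0.05 (8.09%). Over the family the counts were 49 and 37 of 81. Among the 8, Rpl17 was measured at 547, 549 and 534 against 465, 471 and 523 FPKM. Rpl26 overlapped widely, at 272, 222 and 220 against 205, 242 and 258 FPKM.

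Among small subunit genes, Rpsa, the protein at the mRNA exit that is also known as the laminin receptor precursor, was measured at 299, 320 and 308 FPKM in Zfp90 fl/fl and at 261, 270 and 266 FPKM in Zfp90 ΔIEC libraries. The groups did not overlap, with a log2 fold change of -0.22 (SE 0.0523, unadjusted p = 0.00421, adjusted p = 0.134 in limma). Of 5 genes for proteins of the mRNA exit, 4 lay lower without overlap (12.6% of all genes tested, 49 of the 81 family genes). Of the 5, 3 were lower at an unadjusted p under 0.05 in limma (8.09% and 37 of the 81). Of 5 for the mRNA entry and the decoding site, 3 lay lower without overlap (12.6% and 49 of the 81). Rps15, among these 3 and among the 5 most abundant of the family, was measured at 666, 646 and 646 against 572, 614 and 598 FPKM.

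Rps3a1 had the highest mean of the family, at 750, 766 and 736 FPKM in Zfp90 fl/fl and 647, 634 and 699 FPKM in Zfp90 ΔIEC libraries. Rps6, the substrate of S6 kinase that is used as a readout of mTOR activity, was measured at 350, 347 and 334 against 309, 299 and 320 FPKM. Rpl8, at the centre of the large subunit, was measured at 633, 654 and 650 against 600, 606 and 590 FPKM. None of these 3 overlapped, and their log2 fold changes were -0.19, -0.15 and -0.11.

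A list of 9 genes in which loss of 1 copy causes Diamond-Blackfan anaemia, a failure of red cell formation, lay lower like the family. All 9 on the list had log2 fold changes below 0 (57.2% of all genes tested), with a median of -0.12. Of the 9, 7 lay lower without overlap (12.6% of all genes tested, 49 of the 81 family genes). Rps19, the most often mutated of them, was measured at 34.7, 36.7 and 35.2 FPKM in Zfp90 fl/fl and at 31.9, 32.7 and 32.9 FPKM in Zfp90 ΔIEC libraries. Outside that list, Rps27a, which is made as a fusion with ubiquitin, overlapped at 111, 115 and 116 against 116, 103 and 104 FPKM.

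The 6 genes with the lowest log2 fold changes were, apart from Rplp0, uneven between libraries of 1 genotype. Rps20 was measured at 29.93, 30.63 and 29.73 FPKM in Zfp90 fl/fl and at 17.97, 25.53 and 20.88 FPKM in Zfp90 ΔIEC libraries, so that the Zfp90 ΔIEC libraries were lower and also the more scattered. Its log2 fold change of -0.48 was the lowest of the family (SE 0.117, unadjusted p = 0.00446, adjusted p = 0.134 in limma). Rps25, which some viral and cellular internal ribosome entry sites need, was measured at 54.6, 80.9 and 81.3 against 51.22, 51.98 and 54.11 FPKM.

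For Rps25 the first Zfp90 fl/fl library stood with the Zfp90 ΔIEC libraries, and the other two did not. Its log2 fold change was -0.43 (adjusted p = 0.266 in limma) and -0.62 without that library (adjusted p = 0.0446). Rpl29 was measured at 156, 165 and 238 against 133, 154 and 154 FPKM, and its log2 fold change of -0.32 became -0.13 without Zfp90 fl/fl replicate 3. Rpl41, the shortest protein of the ribosome, was measured at 86.8, 67.8 and 59.6 against 53.2, 58.6 and 65.1 FPKM and overlapped. Its log2 fold change went from -0.26 to -0.11 when Zfp90 fl/fl replicate 1 was left out. Rpl13a was measured at 190, 244 and 211 against 169, 185 and 188 FPKM, with a log2 fold change of -0.24 that became -0.15 without Zfp90 fl/fl replicate 2.

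Such scatter was the exception. The coefficient of variation within a genotype was over 10% for 9 of the 81 genes, against 5985 of the 11564 genes tested and 80 of the 189 other coding genes at or above the family's median level. Its median was 3.01% in Zfp90 fl/fl and 4.05% in Zfp90 ΔIEC libraries. Besides those named above, the 9 included Rpl22, named here after its values were seen, at 41.6, 42.1 and 29.6 against 36.35, 26.62 and 40.009 FPKM. Several ribosomal protein genes have near-identical processed copies elsewhere in the genome. Whether the sharing of reads between copies had a part in this scatter was not tested.

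Only 4 of the 81 genes had a log2 fold change above 0, and in the reported fit none of them stood apart from its spread. Of these, 3 were paralogs, genes that resemble a ribosomal protein gene and carry its symbol with an added l. Rpl36al was measured at 59.6, 62.8 and 59.6 FPKM in Zfp90 fl/fl and at 65.8, 62.8 and 62.5 FPKM in Zfp90 ΔIEC libraries (log2 fold change 0.07, adjusted p = 0.597 in limma, and 0.046 without Zfp90 ΔIEC replicate 1). Rps27l, a target of p53, was measured at 46.2, 53.3 and 56.2 against 50.6, 54.8 and 57.3 FPKM (0.06, adjusted p = 0.779). Rpl7l1 was measured at 23.4, 22.9 and 24.9 against 23.7, 24.5 and 23.7 FPKM (0.01). Of the last 2 the sign changed when single libraries were left out. With median ratio scaling Rpl36al was at 0.097 (adjusted p = 0.465 in limma), and 1 of the 81 genes was higher without overlap.

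Rpl22l1, the paralog of Rpl22, was the only paralog of the 4 that passed the filter with a value below 0, at 18.5, 20.1 and 21.3 against 19.0, 18.7 and 17.8 FPKM (log2 fold change -0.10), and it overlapped. Its log2 fold change was -0.15 without Zfp90 fl/fl replicate 1 and -0.057 without Zfp90 fl/fl replicate 3. Without paralogs, the median was -0.14, and 49 of 77 genes were lower without overlap (12.6% of all genes tested). Of the 77, 76 were below 0 (57.2%). The exception was Rpl38, which has been tied to the translation of Hox mRNAs, at 94.2, 100.2 and 90.6 against 95.8, 92.7 and 97.4 FPKM (log2 fold change 0.006, with a sign that changed when single libraries were left out). Rpl36al lay between 59.6 and 65.8 FPKM while Rpl36a, whose protein is nearly the same, lay between 64.5 and 68.4 FPKM in Zfp90 fl/fl and between 58.3 and 63.9 FPKM in Zfp90 ΔIEC libraries.

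**Figure D3:**
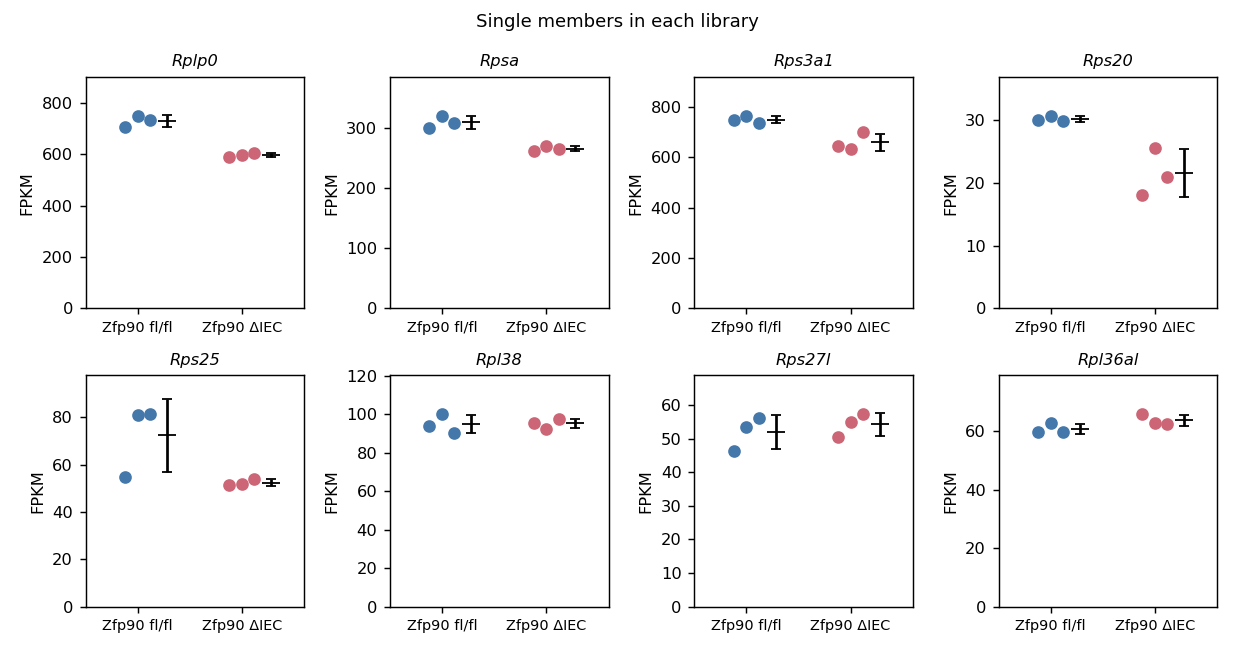
FPKM (y axis from 0) of 8 ribosomal protein genes in the 3 Zfp90 fl/fl (blue) and 3 Zfp90 ΔIEC libraries (red), with the mean and SD in black. The groups are apart for Rplp0, Rpsa, Rps3a1 and Rps20, 1 Zfp90 fl/fl library sits with the Zfp90 ΔIEC libraries for Rps25, and the groups overlap for Rpl38, Rps27l and Rpl36al.

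Genes of high and of low level were both lower. The 81 genes had means from 19.2 to 705 FPKM, 52 of them over 100 FPKM, and the median log2 fold change was -0.12 over the 27 genes of lowest level, -0.14 over the middle 27 and -0.16 over the 27 of highest level. At an unadjusted p under 0.05, 10, 10 and 17 of them were lower in that order (8.09% of all genes tested). Without overlap, 15, 14 and 20 were lower in the same order (12.6%). Other coding genes of at least the median level of the family, 143 FPKM, numbered 189 and had a median of 0.04, and 6.88% of them were lower without overlap. Genes with and without a pyrimidine word at the start were both lower. Among genes with a start in the table that passed the filter, the median was -0.13 over the 33 with a word and -0.14 over the 28 without. Without overlap, 21 of 33 and 15 of 28 were lower (12.6% of all genes tested). In each set 14 had an unadjusted p under 0.05 (8.09%). These differences were not tested.

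Reads of ribosomal protein genes can also match their pseudogenes, and how such reads were assigned here is not known. Of 289 annotated pseudogenes named after a member, 168 had a value above 0, and together they came to 3034, 3152 and 3040 FPKM in Zfp90 fl/fl and 2757, 2747 and 2928 FPKM in Zfp90 ΔIEC libraries. Rpl31-ps8 alone was listed at 305, 318 and 298 against 244, 271 and 319 FPKM, above Rpl31 itself. With each pseudogene's FPKM added to its parent gene, 36 of 81 genes were lower at an unadjusted p under 0.05 in limma (8.08% of all genes tested). Of the 81, 78 were below 0 (57.2% of all genes tested in the reported fit). None of the 81 had an adjusted p under 0.05 (23 of all 11564 genes tested). Values of single members are therefore uncertain where such copies are near-identical.

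Other mRNAs with a terminal oligopyrimidine tract, taken from a list of 17 translation factors and related genes, lay lower by a similar amount. Their median log2 fold change was -0.15, 16 of 17 were below 0 (57.2% of all genes tested), 9 were lower at an unadjusted p under 0.05 in limma (8.09%) and 10 were lower without overlap (12.6%). None had an adjusted p under 0.05, the smallest being 0.101. Eef1a1, the elongation factor that brings aminoacyl-tRNA, was measured at 2152, 2170 and 2073 FPKM in Zfp90 fl/fl and at 1831, 1787 and 1847 FPKM in Zfp90 ΔIEC libraries. Its log2 fold change was -0.23, with no overlap.

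Rack1, a scaffold protein that sits on the small subunit, was measured at 125, 131 and 130 against 101, 113 and 105 FPKM, and Eef2, the translocation factor, at 685, 699 and 636 against 602, 591 and 587 FPKM. Neither overlapped. Tpt1 did, at 317, 327 and 324 against 309, 282 and 327 FPKM. Fau, which encodes a ribosomal protein made as a fusion with a ubiquitin-like protein, overlapped at 153, 151 and 146 against 142, 154 and 158 FPKM.

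The proteins of the mitochondrial ribosome, which are encoded in the nucleus but are not counted among the terminal oligopyrimidine mRNAs, did not lie lower as a list. Of 78 genes, all tested, 56 had a log2 fold change above 0, and the median was 0.04. At an unadjusted p under 0.05, 1 was lower and 2 were higher, against 8.09% and 6.56% of all genes tested. Without overlap, 1 lay lower and 6 higher, against 12.6% and 8.73%. Their sum was 956, 973 and 970 FPKM in Zfp90 fl/fl and 945, 1036 and 982 FPKM in Zfp90 ΔIEC libraries, which overlapped.

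**Figure D4:**
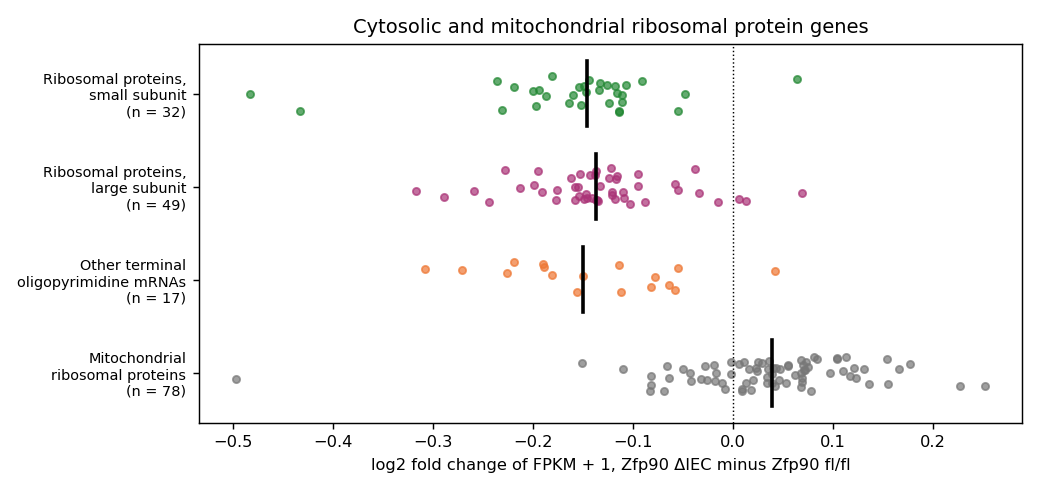
Each point is a gene, placed by its log2 fold change of FPKM + 1 (x axis, Zfp90 ΔIEC minus Zfp90 fl/fl), with the median of each list as a black bar; vertical scatter within a list is only for legibility. The medians are -0.15 and -0.14 for the small and large subunit and -0.15 for 17 other terminal oligopyrimidine mRNAs, and 0.04 for 78 mitochondrial ribosomal protein genes.

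Of 9 genes that regulate ribosomal protein synthesis, among them Mtor, its partner Rptor, the tuberous sclerosis genes and S6 kinase, 8 were tested. None of these reached an unadjusted p of 0.05 and all 8 overlapped. Myc, which drives ribosome biogenesis, was measured at 6.10, 5.55 and 5.82 FPKM in Zfp90 fl/fl and at 6.33, 6.40 and 5.68 FPKM in Zfp90 ΔIEC libraries. Larp1 was measured at 27.0, 23.9 and 24.7 against 26.9, 24.8 and 23.7 FPKM. These are mRNA levels, and the activity of mTOR was not measured by them.

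Genes of the family that serve as reference genes in quantitative PCR lay on the same side. All 5 of Rplp0, Rpl13a, Rps18, Rpl19 and Rpl32 had log2 fold changes below 0, from -0.29 to -0.09. Of the 5, 3 lay lower without overlap (12.6% of all genes tested, 49 of the 81 family genes). Rps18 was measured at 134, 137 and 138 FPKM in Zfp90 fl/fl and at 128, 121 and 125 FPKM in Zfp90 ΔIEC libraries, a log2 fold change of -0.13 (adjusted p = 0.305 in limma).

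Markers of some other cells differed between genotypes as well, and in bulk samples fewer cells of a type and less RNA per cell cannot be told apart. All 8 epithelial markers were measured in every library, Epcam at 553.5 to 608.5 FPKM. Fibroblast markers summed to at most 0.567 FPKM and smooth muscle markers to at most 0.150 FPKM in any library. The endothelial markers summed to 0.197 to 0.313 FPKM in Zfp90 fl/fl and 0.425 to 0.480 FPKM in Zfp90 ΔIEC libraries, nearly all of it Pecam1, which did not overlap. The 7 leukocyte markers summed to 26.7 to 47.9 FPKM in Zfp90 fl/fl and 22.6 to 34.1 FPKM in Zfp90 ΔIEC libraries, nearly all of it Ly6g, and the other 6 to 2.70 to 3.13 and to 0.736 to 1.16 FPKM. Those 6 were each lower in Zfp90 ΔIEC libraries without overlap (12.6% of all genes tested, and 8.88% of genes with no filter). Cd79a and Adgre1 were at 0 in 1 library each. These 6 and Pecam1 lay below the filter and were not tested.

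Some markers of dividing crypt cells and of mature epithelium were higher where the ribosomal protein genes were lower. Mki67 was measured at 22.6, 21.8 and 22.6 against 29.1, 30.2 and 30.6 FPKM and rose with a log2 fold change of 0.41 (adjusted p = 0.0478 in limma). Top2a, Pcna and Mcm5 were higher without overlap (8.73% of all genes tested) and at an unadjusted p under 0.05 in limma (6.56%). The stem cell markers Lgr5 (0.727 to 0.840 against 0.714 to 0.934 FPKM) and Ascl2 (0.846 to 1.09 against 0.865 to 1.15 FPKM) lay below the filter and overlapped. The 6 crypt markers summed to 84.3 to 91.9 FPKM in Zfp90 fl/fl and 103 to 112 FPKM in Zfp90 ΔIEC libraries. The epithelial markers summed to 8512 to 10657 against 11400 to 15138 FPKM, of which Car1 alone gave 4033 to 5628 and 6349 to 10059 FPKM. Car1, Slc26a3 and Muc2 were higher without overlap (8.73% of all genes tested). The other 5 overlapped, with means slightly lower for Cdh1, Epcam and Krt8. The part of leukocytes, cell division and maturation in the values of the ribosomal protein genes was not tested.

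Zfp90 itself was low in all libraries, at 0.630, 0.490 and 0.569 FPKM in Zfp90 fl/fl and 0.0846, 0.195 and 0.166 FPKM in Zfp90 ΔIEC libraries, with no overlap. The genotype field of 2 of the Zfp90 ΔIEC libraries names another gene number, and these were grouped by their titles. Depth is not stated, and the steps of low values correspond to an estimated 25.7 to 28.7 M fragments per library. At that depth the ribosomal protein gene with the fewest fragments in a library, Rpl22l1 or Rps28, rested on an estimated 255 to 321 fragments and the median one on an estimated 2701 to 3231.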

How the data were processed

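RNA-seq of colon epithelium was analysed in 6 libraries, 3 of each genotype, grouped by their titles. The authors deposited 1 file of FPKM values per library. The submitters' processing notes name FastQC, STAR 2.5, Cuffnorm, DESeq 1.22.1 and the mouse build mm9, whereas the published methods name TopHat, Cuffdiff and a human genome, and which of them made the files is not settled. The identifiers are mouse Ensembl genes, matched to GENCODE M21 (52403 of 52550 matched). The libraries are stranded.

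From the deposited FPKM, log2(FPKM + 1) was compared for the 11564 genes that reached 1 FPKM in 3 or more libraries, with limma 3.58.1 (intensity trend, two-sided) in R 4.3.3 and Benjamini-Hochberg adjustment over all of them. The fold change on this scale understates changes of low genes. The test was also tried on simulated data, whose outcome is not reported here and on which no result rests. Sums used FPKM of all 84 genes. Depth was estimated from genes with 1 transcript, where 67.1% to 73.8% of low values lay within 10% of a whole fragment. Sums and figures were made with pandas 2.3.3 and numpy 2.4.6 under Python 3.11.15, drawing with matplotlib 3.10.9.

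The members, the gene lists and the alternatives were chosen with earlier results of these data known. Genes named are the 6 lowest log2 fold changes, the 4 above 0 (of at most 6 asked for), the 5 of highest mean, all paralogs, and 11 members and 8 other genes fixed by name. Other genes named were chosen after their values were seen or stand in the lists of structural groups and markers. The result of some genes under these rules is not reported here.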

Additional observations from a re-analysis of the deposited data

How the results depend on the processing

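Values below are log2 fold changes or log2 ratios. The alternatives were the replicate number as a block, leaving out each library, adding pseudogenes, a pseudocount of 0.1, testing with no filter, scaling by the median ratio or by quantiles, and removing the trend on transcript length and GC content. Members with an adjusted p under 0.05 in limma numbered 0 in the reported fit and 1 with quantile normalization (Rplp0, adjusted p = 0.0463), and 0 to 1 with a library left out, the 1 being Rps25 without Zfp90 fl/fl replicate 1. Those with an unadjusted p under 0.05, all lower, numbered 16 with median ratio scaling (5.71% of all genes tested were lower). With a library left out they numbered 14 to 36 (5.64 to 8.09% of all genes tested). The median was -0.16 to -0.12, the summed share -0.20 to -0.16 and the ratio of subunits -0.025 to -0.011 with a library left out. The summed share was -0.14 from the mean of log2 values. No other alternative moved these values past the spread between replicates or the counts by over 1.5 times.

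Signs turned for 5 of the 32 named genes, all with small changes. Without single libraries, Rps27l ranged from -0.016 to 0.12, Rpl7l1 from -0.013 to 0.046, Rpl38 from -0.028 to 0.044, Fau from -0.020 to 0.059 and Larp1 from -0.053 to 0.043. Rpl7l1 was at -0.0032 with the length and GC trend removed, Rpl38 at -0.0027 with pseudogenes added, and Larp1 at 0.023 with median ratio scaling and 0.012 with the trend removed. The cause was not tested.

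Over all genes, 23 passed the adjusted threshold, against 13 with a pseudocount of 0.1, 15 with no filter, 47 with the replicate block and 10 to 21 with a library left out. Of 1694 genes at an unadjusted p under 0.05, 935 were lower, and of 1617 with median ratio scaling, 660. Replicate numbers were not taken as pairs, since the labels do not pair them. Deviations of same-numbered libraries correlated at 0.194, 0.110 and 0.0782, the last under a set limit of 0.1. Those of differently numbered libraries correlated at -0.128 to 0.0137, lower in every case. Whether same-numbered libraries shared a batch was not tested. With the block, 34 members had an unadjusted p under 0.05 in limma, all lower (8.81% of all genes tested were lower). None of the members had an adjusted p under 0.05 (smallest 0.112), and the medians were as reported. FPKM and an estimated depth limit single values of low genes, and 3 libraries per genotype limit all tests.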
